A study of Mus musculus with 27 samples.

Results

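Dnajc12, Slc41a2, Klk1b4, Ccdc38, 2210407C18Rik and Pnliprp1 are 6 of the 21823 protein-coding genes in a table of RNA levels of the mouse liver lobule, and they were chosen by their rise at day 16 of pregnancy in these same data. RNA was measured in 3 zones of the lobule cut out by laser microdissection, zone 1 around the portal vein, zone 3 around the central vein and zone 2 between them, from an area of 2 mm2 per zone. All mice were adult wild-type C57BL/6 females, of the C57BL/6N substrain, and were either non-pregnant (NP) or taken at day 8 (dpc8, mid gestation) or day 16 post coitum (dpc16, late gestation). The 9 groups of stage and zone held 3 libraries each, 27 in all, and no mouse carried an allele or received an agent. The labels do not say whether libraries with the same replicate number came from the same mouse, so p-values measure the spread between libraries. Each microdissected area holds every cell type of its zone, and a change in the number of cells of a type cannot be told apart from a change in RNA per cell. Because the rise at dpc16 selected these genes, every value at dpc16 is given for them as a description without a test, and tests were run only on zone differences in NP and at dpc8 and on dpc8 against NP. The NP values are the baseline of that rise, so only the zone difference at dpc8 uses libraries apart from it.

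The liver lobule is arranged along the blood flow from portal to central vein, and hepatocytes at the portal and the central end express different enzymes, a division of labour called zonation. In pregnancy the maternal liver grows and adapts its metabolism to the demands of the fetuses under placental and pituitary hormones. Dnajc12 is a J-domain cochaperone of the HSP40 family that works with HSP70 and binds the aromatic amino acid hydroxylases. Slc41a2 is a membrane transporter of magnesium. Klk1b4 belongs to the kallikrein 1-related serine peptidases, a rodent family of close paralogs that sits in one cluster and is best known from the salivary gland. Ccdc38 is a coiled-coil protein of the manchette and flagellum of developing sperm, and Pnliprp1 is a relative of pancreatic lipase that is made in the exocrine pancreas. No role is given here for 2210407C18Rik.

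FPKM divide the fragments of a gene by its transcript length and by the depth of the library, so levels can be compared between genes. Of the low values of genes with 1 transcript, 93.4 to 98.5% per library lay within 0.1 of a whole multiple of a step, and 1 read on a transcript with an effective length of 1 kilobase was worth 0.0300 to 0.133 FPKM, depending on the library. In units of 1e6 this corresponds to an estimated 7.53 to 33.4 reads per library, with a median of 16.4. Portal and central markers followed the zone labels, with 10 of 10 periportal genes at a higher mean in zone 1 and 10 of 10 pericentral genes at a higher mean in zone 3 at each of the 3 stages. In 6 libraries 4 Y-linked genes summed to 7.92 to 23.2 FPKM although all mice are labelled female, against at most 2.97 in the other 21. In NP these were replicate 1 of zone 1 and replicate 2 of zone 3, at dpc8 replicate 1 of zone 1 and replicate 2 of zone 2, and at dpc16 replicate 3 of both zones 2 and 3. The same 6 libraries had the most RNA of smooth muscle and connective tissue genes, at a mean log2(FPKM + 1) of 5.49 to 7.10 against 1.46 to 4.57, and ratios of dpc16 to NP and calls that changed without them are given both ways. Alb, the albumin gene, made up 3.71 to 12.0% of all FPKM of a library in NP and 7.98 to 21.0% at dpc16.

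The 250 bases before the start site of 5 of the 6 genes are shown from RefSeq on GRCm38.p6, because the genes shared their stage pattern but not their zone pattern. Dnajc12 has no entry there. The RefSeq start of 2210407C18Rik lies inside the gene as GENCODE places it, from 58608204 to 58616075. Capitals mark CG dinucleotides, the sites of DNA methylation, and one TATA box. The stretches are chr10:83337818-83338067 on the minus strand for Slc41a2, chr7:44207183-44207432 on the plus strand for Klk1b4, chr10:93540382-93540631 on the plus strand for Ccdc38, chr11:58613493-58613742 on the minus strand for 2210407C18Rik and chr19:58728637-58728886 on the plus strand for Pnliprp1.
Slc41a2: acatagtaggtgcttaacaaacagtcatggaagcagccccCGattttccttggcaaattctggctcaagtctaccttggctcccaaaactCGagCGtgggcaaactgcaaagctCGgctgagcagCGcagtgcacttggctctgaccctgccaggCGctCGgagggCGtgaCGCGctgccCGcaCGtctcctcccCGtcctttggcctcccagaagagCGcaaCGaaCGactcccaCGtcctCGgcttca
Klk1b4: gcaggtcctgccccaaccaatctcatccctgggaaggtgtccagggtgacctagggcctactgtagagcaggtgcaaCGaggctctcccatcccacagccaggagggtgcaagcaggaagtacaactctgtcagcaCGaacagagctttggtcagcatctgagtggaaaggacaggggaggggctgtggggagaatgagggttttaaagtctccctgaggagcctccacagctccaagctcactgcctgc
Ccdc38: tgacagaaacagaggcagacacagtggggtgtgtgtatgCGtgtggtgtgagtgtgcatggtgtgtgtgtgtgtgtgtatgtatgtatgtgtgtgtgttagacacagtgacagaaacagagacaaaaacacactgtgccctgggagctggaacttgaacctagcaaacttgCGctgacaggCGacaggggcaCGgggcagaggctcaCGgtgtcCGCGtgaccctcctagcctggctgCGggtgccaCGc
2210407C18Rik: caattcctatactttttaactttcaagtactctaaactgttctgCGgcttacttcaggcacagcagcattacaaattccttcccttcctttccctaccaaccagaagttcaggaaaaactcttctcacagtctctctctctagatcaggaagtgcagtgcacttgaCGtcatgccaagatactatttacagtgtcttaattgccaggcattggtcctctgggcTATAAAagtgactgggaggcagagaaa
Pnliprp1: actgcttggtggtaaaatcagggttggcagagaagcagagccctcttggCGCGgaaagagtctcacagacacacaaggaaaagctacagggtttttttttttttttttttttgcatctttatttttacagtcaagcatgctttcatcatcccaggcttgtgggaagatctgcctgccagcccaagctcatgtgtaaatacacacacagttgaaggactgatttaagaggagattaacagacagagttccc

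Slc41a2 had 18 CG dinucleotides in this stretch, more than 78.3% of 32851 RefSeq promoters. Klk1b4, 2210407C18Rik and Pnliprp1 had 2 each, a number at or below which 29.0% of all promoters lie. Ccdc38 lay between them, with 9 CG dinucleotides before its first start and 6 before a second start further into the gene, and the median of all promoters was 6. A set of 5 motifs was searched on both strands of the 6 stretches, the second start of Ccdc38 included. The STAT site TTCNNNGAA, present in 7.02% of all promoters, the TCF/LEF core CTTTGA, present in 13.8%, and the HNF4 site CAAAGTCCA, present in 0.384%, had no match. The HNF1 half-site GTTAAT, present in 6.43% of all promoters, matched on the reverse strand 19 bases before the start of Pnliprp1. The TATA box TATAAA, present in 12.4%, matched 27 bases before the start of 2210407C18Rik. These are matches of letters, and no binding was measured.

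Dnajc12, Slc41a2 and Klk1b4 were present at every stage and reached their highest values in every zone at dpc16. In the plot of levels by library, their 9 dpc16 values lie above all 18 values of NP and dpc8. Ccdc38 and 2210407C18Rik reached theirs in zones 1 and 2 and were listed at 0 in zone 3, whereas Pnliprp1 reached its own in zone 3 and was listed at 0 in zone 1. All 6 genes passed the filter of 1 FPKM in at least 3 libraries, as did 12952 genes in all, but Ccdc38, 2210407C18Rik and Pnliprp1 passed it through their dpc16 values only. Outside dpc16 Ccdc38 reached 1 FPKM in 2 libraries and the other two in none. The 3 values at dpc16 lay above all 3 values in NP for 5 of the 6 genes in zone 1, where this held for 9.42% of all genes that passed the filter, for 5 in zone 2 (7.77% of all genes) and for 4 in zone 3 (7.84%). Against dpc8 the counts were 5 in zone 1 (9.8% of all genes), 4 in zone 2 (6.84%) and 4 in zone 3 (11.1%). The rise chose the genes, so nothing is read from these counts.

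**Figure D1:**
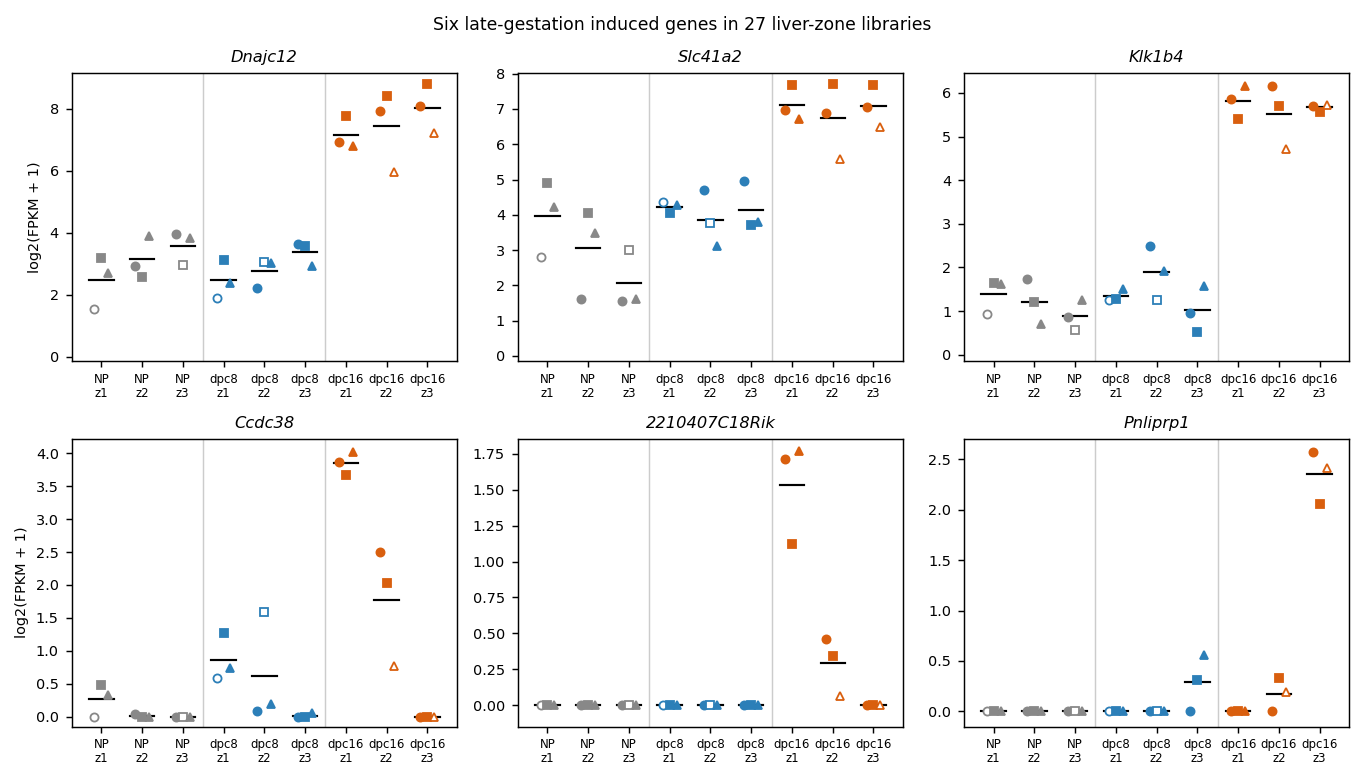
Levels of the 6 genes as log2(FPKM + 1), 1 panel per gene with its own scale. The x axis gives the 9 groups of stage and zone, each point is 1 library (circle, square and triangle for replicates 1, 2 and 3, open symbols for the 6 libraries with Y-linked RNA) and each bar is the group mean of 3 libraries. Dnajc12, Slc41a2 and Klk1b4 are high in all 3 dpc16 groups, Ccdc38 and 2210407C18Rik fall from zone 1 to zone 3 at dpc16, and Pnliprp1 is high in zone 3 at dpc16.

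Dnajc12 (ENSMUSG00000036764.12) lies on chromosome 10 from 63382443 to 63410576 on the plus strand of mm10. At dpc16 its levels were 120, 216 and 109 FPKM in zone 1, 240, 339 and 61.4 FPKM in zone 2 and 273, 438 and 148 FPKM in zone 3. In NP they were 1.87, 8.0 and 5.48 FPKM in zone 1, 6.58, 4.99 and 13.9 FPKM in zone 2 and 14.5, 6.77 and 13.1 FPKM in zone 3. The lowest dpc16 library stood above the highest NP library, and the dpc16 mean was 29.0 times the NP mean in zone 1, 25.1 times in zone 2 and 25 times in zone 3. At dpc8 the 9 values lay between 2.71 and 11.4 FPKM, within the range of NP, so the cochaperone went from the middle of the tested genes, with 58.9% of them at a lower mean in NP zone 3, to near their top, with 97.7% at a lower mean in dpc16 zone 3. Without the libraries with Y-linked RNA the ratio of dpc16 to NP was 22.0 in zone 1, 34.0 in zone 2 and 25.7 in zone 3.

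The level of Dnajc12 was higher towards the central vein at dpc16. Zone 3 exceeded zone 1 within each of the 3 replicate numbers, by 2.29, 2.03 and 1.36 times, and the group means rose from 148 ± 59 FPKM in zone 1 to 213 ± 140 in zone 2 and 287 ± 145 in zone 3 (SD, n = 3). The ranges of the 3 zones overlapped. Replicate 2 was the highest and replicate 3 the lowest in every zone, and in zone 2 the mean was 289 FPKM without replicate 3, which is a library with Y-linked RNA. The same direction was seen before the rise, with a mean in zone 3 of 11.5 FPKM against 5.11 in zone 1 in NP and of 9.59 against 4.85 at dpc8. Neither difference passed the test: zone 1 less zone 3 was −1.12 ± 0.56 (SE) on the log2(FPKM + 1) scale in NP, with a 95% interval from −2.27 to 0.04 and a limma adjusted p of 0.648, and −0.91 ± 0.56 at dpc8, with an interval from −2.07 to 0.24 and an adjusted p of 0.525. In the order of the 9 group means the dpc16 groups overlapped with each other, stood apart from the next group, NP zone 3, and the other 6 groups overlapped with their neighbours.

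Slc41a2 (ENSMUSG00000034591.5) lies on chromosome 10 from 83230848 to 83337882 on the minus strand. At dpc16 this magnesium transporter was at 124, 204 and 104 FPKM in zone 1, at 118, 208 and 47.2 FPKM in zone 2 and at 132, 206 and 88.5 FPKM in zone 3. Its level did not differ between zones by more than the spread of the libraries at that stage, with means of 144 ± 53, 124 ± 80 and 142 ± 59 FPKM (SD, n = 3), and replicate 2 was the highest and replicate 3 the lowest in every zone, as for Dnajc12. In NP the values were 5.97, 28.8 and 17.6 FPKM in zone 1, 2.08, 15.5 and 10.3 FPKM in zone 2 and 1.93, 7.08 and 2.08 FPKM in zone 3, a portal-high order in which zones 1 and 3 overlapped. Zone 1 less zone 3 was 1.91 ± 0.63 on the log2 scale in NP, with a 95% interval from 0.59 to 3.23 and a limma adjusted p of 0.238, which misses the threshold. The NP values are the baseline of the rise that chose the gene, so this test is not independent of the choice. The overlap came from 1 library in each group, both among those with Y-linked RNA. Without these libraries the difference was 2.97 at an adjusted p of 0.0270, and with limma's array weights, which let noisier libraries count less, it was 2.51 at an adjusted p of 0.0238.

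At dpc8 the 3 zones overlapped for Slc41a2, with 19.7, 15.5 and 18.5 FPKM in zone 1, 25.04, 12.6 and 7.71 FPKM in zone 2 and 29.9, 12.0 and 12.8 FPKM in zone 3. Its difference between zones 1 and 3 was 0.09 ± 0.63 with a 95% interval from −1.23 to 1.41. In zone 3 all 3 dpc8 values exceeded all 3 NP values, a mean of 18.2 against 3.70 FPKM. The NP values took part in choosing the gene, by its rise over them, so a difference from NP is not independent of the choice. The fitted difference of dpc8 and NP there was 2.08 ± 0.63, with a 95% interval from 0.76 to 3.40 and an unadjusted p of 0.00346, and limma's adjusted p was 1. In zones 1 and 2 the difference was 0.26 and 0.81, with intervals from −1.06 to 1.58 and from −0.51 to 2.13. Whether the dpc8 change differed between zones 1 and 3 was tested directly, with a difference of −1.82 ± 0.90, an interval from −3.68 to 0.04 and an adjusted p of 1. Relative to NP the dpc16 mean was 8.25 times as high in zone 1, 13.4 times in zone 2 and 38.4 times in zone 3, and without the libraries with Y-linked RNA it was 6.21, 17.6 and 84.2 times as high. The ratios to dpc8 were closer together, at 8.05, 8.22 and 7.79.

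Klk1b4 (ENSMUSG00000066513.4) lies on chromosome 7 from 44207435 to 44211754 on the plus strand. Its dpc16 levels were 56.9, 41.0 and 70.9 FPKM in zone 1, 70.3, 50.8 and 25.2 FPKM in zone 2 and 51.3, 46.3 and 52.1 FPKM in zone 3. These values show no order by zone, with means of 56.2 ± 15, 48.8 ± 22.7 and 49.9 ± 3.1 FPKM (SD, n = 3), and the lowest value was again that of zone 2 replicate 3, a library with Y-linked RNA. In NP the 9 values lay between 0.479 and 2.35 FPKM and at dpc8 between 0.444 and 4.61, so the dpc16 mean was 33.1, 34.3 and 55.5 times the NP mean in zones 1, 2 and 3, and 26.9, 42.6 and 44.0 times without the libraries with Y-linked RNA. Klk1b4 has 1 annotated transcript, which allows its reads to be estimated: 5 to 28 reads in the NP libraries, 5 to 39 at dpc8 and 197 to 758 at dpc16. The low values therefore rest on few reads, whereas the dpc16 values do not. None of its zone differences in NP and at dpc8, of 0.50 and 0.32 on the log2 scale, and none of its 3 differences between dpc8 and NP, from −0.05 to 0.67, passed the limma test, with adjusted p-values from 0.745 to 1.

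Close paralogs could exchange reads with Klk1b4. Of the 754 windows of 86 bases, the read length, in its transcript, 38 (5.04%) occur letter for letter in another gene, Klk1b5, Klk1b11, Klk1b16 or Klk1b24. For the 5 other genes no such window was found. Klk1b3, the neighbour 5082 bases before Klk1b4, was at most at 0.0832 FPKM in any library, and Klk1b5, 4190 bases after it, was listed at 0 in all 18 NP and dpc8 libraries and reached 0.499 FPKM at dpc16. Klk1b5 had its highest mean in dpc16 zone 3, at 0.364 ± 0.123 FPKM (SD, n = 3), where Klk1b4 was at 49.9. Levels of that size could come from reads of Klk1b4 or from Klk1b5 itself, which cannot be told apart in these values. Of the 16 other genes in a list of the kallikrein 1 family and the kinin system, 3 passed the filter and none of them passed the test of dpc16 against NP in any zone, but Kng1 was called higher in each zone with array weights and without the libraries with Y-linked RNA. Klk1b5 did not pass the filter, and with no filter it was called higher in zone 3, by 0.44 at a limma adjusted p of 0.0024.

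Ccdc38 (ENSMUSG00000036168.15) lies on chromosome 10 from 93540632 to 93584327 on the plus strand, and its pattern was a gradient from the portal vein. At dpc16 its levels were 13.6, 11.7 and 15.3 FPKM in zone 1, 4.66, 3.06 and 0.706 FPKM in zone 2, and it was listed at 0 in all 3 zone 3 libraries. Zone 1 exceeded zone 2 by 4.81 times in the mean and in every replicate number, by 2.91, 3.83 and 21.6 times, the last with the zone 2 library that had Y-linked RNA. Without that library the zone 2 mean was 3.86 FPKM in place of 2.81. In NP it was detected in 2 of 3 zone 1 libraries, at 0.390 and 0.253 FPKM, and in 1 zone 2 library, at 0.0309 FPKM, and it was listed at 0 in zone 3. A count of 3 reads would correspond to 0.0381 to 0.0756 FPKM in the libraries where it was listed at 0, so levels below that cannot be told from 0 there, although single values under it, from fewer reads, are listed elsewhere.

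At dpc8 Ccdc38 had low values, and it is in the tests only because of its level at dpc16. All 3 zone 1 libraries had a value, at 0.506, 1.40 and 0.667 FPKM, and zone 2 gave 0.0654, 2.00 and 0.142 FPKM, where the highest came from the library with Y-linked RNA. In zone 3 the values were 0, 0 and 0.0370 FPKM. Zone 1 less zone 3 was 0.85 ± 0.36 on the log2(FPKM + 1) scale, with a 95% interval from 0.09 to 1.60 and a limma adjusted p of 0.338. Without the libraries with Y-linked RNA it was 0.98 at an adjusted p of 0.0211, and with array weights 0.98 at an adjusted p of 0.0115, and as the gene was kept only through dpc16, nothing is read from these tests. Against NP the dpc8 level was 0.60 ± 0.36 higher on that scale in zone 1 and 0.61 ± 0.36 higher in zone 2, with adjusted p-values of 1 and 0.971, and the zone 2 value depended on the 1 library. Without it the zone 2 mean was 0.104 FPKM in place of 0.736.

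**Figure D2:**
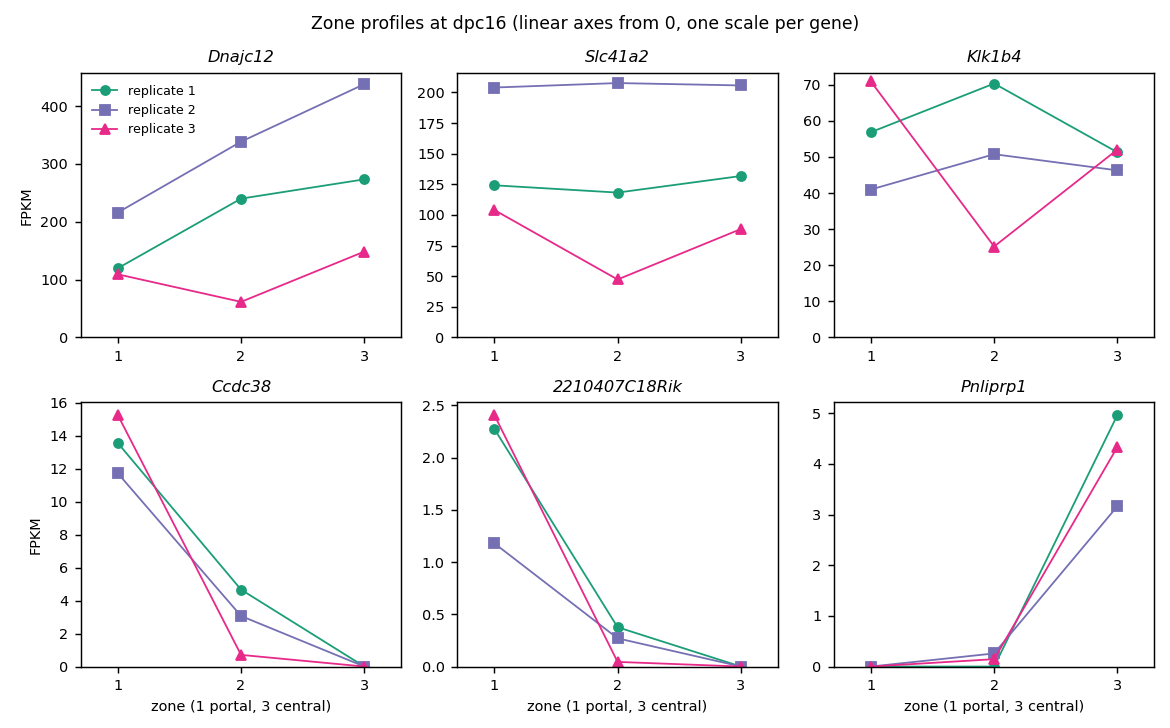
FPKM of the 6 genes at dpc16 against zone (1 portal, 3 central), on linear axes from 0 with 1 scale per gene and 1 line per replicate number. Dnajc12 rises towards zone 3 within each number except at zone 2 of replicate 3, Slc41a2 is level in replicates 1 and 2, Ccdc38 and 2210407C18Rik drop to 0 in zone 3, and Pnliprp1 is at 3.16 to 4.96 FPKM in zone 3.

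The start of Ccdc38 faces that of Amdhd1, an enzyme of histidine breakdown on the minus strand, 598 bases away, and Hal, the first enzyme of that pathway, lies beyond it. Both neighbours had their highest mean in zone 1 at every stage. Amdhd1 was at 96.3 ± 12.3 FPKM in zone 1 and at 16.9 ± 9.5 in zone 3 at dpc16 (SD, n = 3), and the same zones were at 112 ± 42 and 22.1 ± 10.6 in NP. Hal was at 326 ± 37 FPKM in zone 1 and 1.88 ± 1.53 in zone 3 at dpc16, against 512 ± 186 and 7.37 ± 7.89 in NP (SD, n = 3). Both therefore shared the zone order of Ccdc38, whereas their zone 1 means in NP lay above those at dpc16. Their dpc16 levels differed from NP by −0.16 ± 0.54 and −0.58 ± 0.58 on the log2 scale in zone 1, with limma adjusted p-values of 0.935 and 0.777. At its far end Ccdc38 overlaps Snrpf, a gene of the splicing machinery on the other strand, by 1299 bases, and whether reads were counted by strand is not given in the sources used here. Snrpf was between 5.02 and 28.4 FPKM in every library, with 10.1 ± 3.3 FPKM in zone 1 and 13.3 ± 2.4 FPKM in zone 3 at dpc16.

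**Figure D3:**
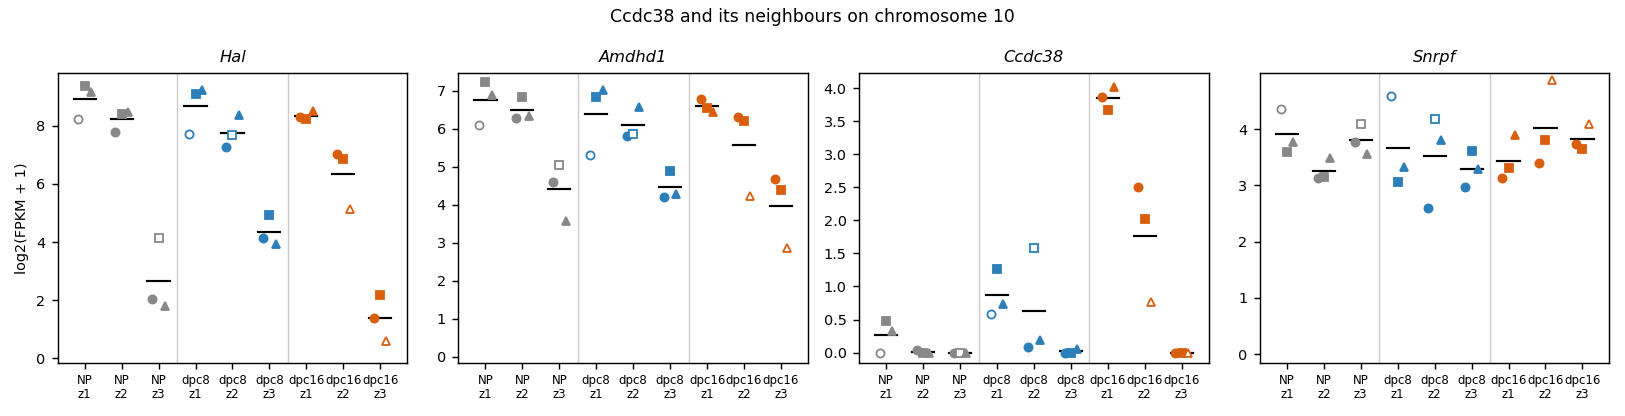
Levels as log2(FPKM + 1) of Ccdc38 and of the neighbours Hal, Amdhd1 and Snrpf in the 9 groups (points are libraries with symbols for the replicate as above, open where Y-linked RNA was present, bars are means of 3). Hal and Amdhd1 fall from zone 1 to zone 3 at all 3 stages, Ccdc38 does so mainly at dpc16, and Snrpf has no such order.

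2210407C18Rik (ENSMUSG00000037145.14), on chromosome 11 from 58608204 to 58616075 on the minus strand, followed Ccdc38 at a lower level. At dpc16 it was at 2.27, 1.179 and 2.41 FPKM in zone 1 and at 0.376, 0.270 and 0.0444 FPKM in zone 2. It was listed at 0 in the other 21 libraries, the 3 of dpc16 zone 3 and all 18 of NP and dpc8 included. Where it was listed at 0, 3 reads on its longest coding transcript would correspond to 0.139 to 0.337 FPKM, and the zone 2 values are near that level, so that only the zone 1 values rest on more than a few reads. Zone 1 and zone 2 did not overlap, with a ratio of means of 8.49, and without the library with Y-linked RNA the zone 2 mean was 0.323 in place of 0.230 FPKM. Both its neighbours, the olfactory receptor genes Olfr324 and Olfr323, were listed at 0 in all 27 libraries. Over the 27 libraries Pearson's r of its log2(FPKM + 1) with Ccdc38 was 0.913, or 0.934 over the 21 libraries without Y-linked RNA, a number set mostly by the dpc16 libraries that both genes share.

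Pnliprp1 (ENSMUSG00000042179.6), on chromosome 19 from 58728887 to 58744169 on the plus strand, had the opposite zone order. At dpc16 it was at 4.96, 3.16 and 4.33 FPKM in zone 3, at 0, 0.259 and 0.146 FPKM in zone 2, and it was listed at 0 in all 3 zone 1 libraries. Before dpc16 the gene had a value in 2 of 18 libraries, 0.241 and 0.477 FPKM, and both were zone 3 libraries of dpc8. All 9 NP libraries were at 0, and 3 reads would correspond to 0.0782 to 0.280 FPKM where it was listed at 0. Nothing is read from the tests of Pnliprp1 at these stages, since it passed the filter only through dpc16 and was at 0 in nearly all their libraries. The zone 3 values at dpc16 did not depend on the libraries with Y-linked RNA, with a mean of 4.15 FPKM with and 4.06 without them.

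Pnliprp1 is known from the pancreas, Klk1b4 from the salivary gland and Ccdc38 from sperm cells, and marker genes of those tissues were examined beside them. Of 14 acinar genes of the pancreas, Pnlip, the adjacent lipase gene, and Cel, Prss2, Try4 and Try5 were listed at 0 in all 27 libraries, and only Cela1, Cela2a and Ctrl exceeded 1 FPKM in any library. The summed level of the acinar list was 3.97 to 44.0 FPKM in NP, 5.26 to 81.1 at dpc8 and 8.16 to 14.3 at dpc16, and most of it was Cela1. Of 9 salivary genes, 7 were listed at 0 in all libraries of each stage, and the sum of 51.6 to 200.1 FPKM at dpc16 was nearly all that of Amy1, an amylase gene also active in liver, against 49.7 to 115 in NP. Of 8 male germ cell genes, 7 were listed at 0 in all libraries and Ddx4 was at most at 0.282 FPKM. The part of such cells in the values of the 3 genes was not tested beyond these levels.

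At dpc16 the 3 zone 1 values lay above all 3 zone 3 values for Ccdc38 and 2210407C18Rik, 2 of the 6 genes, where this held for 8.36% of all genes that passed the filter. The opposite order held for Pnliprp1 alone, 1 of 6, against 6.39% of all genes. Dnajc12, Slc41a2 and Klk1b4 overlapped between zones 1 and 3. Limma called none of the 6 between zone 1 and zone 3, neither in NP, whose values the rise was read against, where 1.34% of all genes were called, nor at dpc8, where 1.61% were. At an unadjusted p below 0.05 it was 1 of 6 at each stage, Slc41a2 in NP, where this held for 8.02% of all genes, and Ccdc38 at dpc8, where it held for 12.2%. The choice of the genes used the NP values of the first and kept the second in the test, so nothing is read from these counts either. 2210407C18Rik, and in NP also Pnliprp1, were at 0 in all libraries compared and could not have been called.

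Between dpc8 and NP limma called none of the 6 genes in zone 1, zone 2 or zone 3, with shares of all genes called of 0.0309%, 0.00772% and 0.0154%. At an unadjusted p below 0.05 Slc41a2 in zone 3 was the only one, against 3.13%, 5.06% and 2.74% of all genes in zones 1, 2 and 3. 2210407C18Rik, and in zones 1 and 2 also Pnliprp1, were at 0 throughout and could not have been called. The NP libraries are also those against which the rise was read. For Dnajc12 the 3 differences lay between −0.38 and 0.00, with 95% intervals that together span −1.54 to 1.15. For Klk1b4 the intervals span −0.83 to 1.45. The plot of the tested differences shows how wide these intervals are for the genes that were already expressed, and 2210407C18Rik had no value above 0 in any of these libraries.

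**Figure D4:**
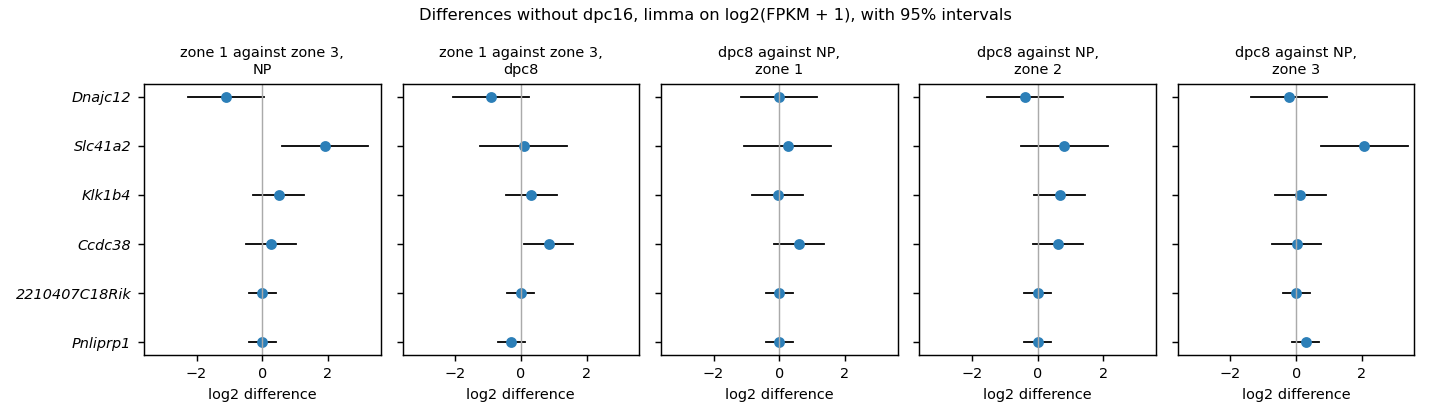
Log2 differences of the 6 genes in the 5 comparisons that leave out dpc16, from limma on log2(FPKM + 1), with points for the estimates and lines for 95% intervals. Nearly all intervals include 0, and those that do not are Slc41a2 between zones 1 and 3 in NP and between dpc8 and NP in zone 3, and Ccdc38 between zones 1 and 3 at dpc8, none of which passed after adjustment over all genes.

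The genes most like each of the 6 over the 27 libraries were named by Pearson's r of log2(FPKM + 1), which describes a shared stage and zone pattern and nothing more. For Dnajc12 they were Tmem64 (r = 0.963), Ghr, the growth hormone receptor (0.954), and Colgalt2 (0.948). Ghr went from a mean of 171 to 2077 FPKM in zone 1 and from 280 to 1533 in zone 3 between NP and dpc16, so at dpc16 its mean was not higher towards the central vein as that of Dnajc12 was, although it was so in NP. For Klk1b4 the most alike were Abca17 (0.969), Colgalt2 (0.966) and Serpina16 (0.963), and Serpina16 was listed at 0 in all NP libraries and at a mean of 8.62 FPKM in dpc16 zone 1. For Slc41a2 they included Cp, the ferroxidase ceruloplasmin (0.907), and Stx18 (0.900). Over all 6 genes, most pairs of a gene and a most alike gene were not found again without the libraries with Y-linked RNA.

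Among the genes most like Ccdc38 and 2210407C18Rik, Tekt4 and Aqp4 also had their highest mean in dpc16 zone 1. Tekt4, which encodes a tektin of the sperm flagellum, was second for Ccdc38 (r = 0.874) and first for 2210407C18Rik (0.888), and it stood at 2.48 ± 1.05, 1.29 ± 0.50 and 0.390 ± 0.151 FPKM in zones 1, 2 and 3 at dpc16 (SD, n = 3). Aqp4, a water channel, was first for Ccdc38 (0.875), at 7.15, 2.17 and 0.949 FPKM in the 3 zones. For Pnliprp1 the most alike were Rdh1, a retinol dehydrogenase (0.914), Slc22a2, an organic cation transporter (0.890), and Col23a1 (0.876). Rdh1 had its highest mean in dpc16 zone 3, at 3.67 FPKM against 0.127 in zone 1. Slc22a2 was at 4.31 against 0.299 and Col23a1 at 1.87 against 0.113, so that these 3 genes shared its central side at dpc16. Among the 6 genes themselves r was 0.916 for Dnajc12 and Klk1b4, 0.872 for Klk1b4 and Slc41a2, and −0.244 for Ccdc38 and Pnliprp1.

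Dnajc12, Slc41a2 and Ccdc38, 3 of the 6 genes, lie on chromosome 10, which carries 4.97% of the 12846 genes that passed the filter and have a position. The genes beside Dnajc12 and Slc41a2 had similar ranges in NP and at dpc16. Sirt1, whose start faces that of Dnajc12 at a distance of 738 bases, was between 2.57 and 6.14 FPKM in NP and between 3.19 and 7.77 at dpc16. Chst11 and D10Wsu102e beside Slc41a2 were at most at 1.65 FPKM in any library. Pnliprp2, the next lipase gene after Pnliprp1, was at most at 0.570 FPKM.

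The other genes of the pathways around the 6 were tested between dpc16 and NP, where limma called in zone 1 1.37%, in zone 2 2.66% and in zone 3 1.32% of all genes. Of the 12 tested genes of magnesium transport, 2 rose in zone 1, 1 in zone 2 and none in zone 3, and none fell. With array weights Cnnm2 was also called higher and Cnnm4 lower in zone 1, by 0.78 and −1.03 on the log2 scale, and Nipal1 was called higher in zone 2 and both Nipal1 and Slc41a3 in zone 3. Without the libraries with Y-linked RNA Nipal1 was called in zone 2 and Slc41a3 in zone 3 as well. Slc41a3, of the same transporter family as Slc41a2, rose from 1.21 ± 0.42 to 13.1 ± 7.4 FPKM in zone 1 (SD, n = 3), a log2 difference of 2.56 ± 0.53 (SE) with a limma adjusted p of 0.0134, and from 0.836 ± 0.412 to 12.4 ± 9.0 FPKM in zone 2, a difference of 2.60 ± 0.53 with an adjusted p of 0.00753. Its zone 3 level went from 0.937 to 6.08 FPKM, which missed the threshold (limma adjusted p = 0.128), and whether its change differed between zones 1 and 3 was tested with a difference of 0.82 ± 0.76 (SE) and an adjusted p of 0.993. Nipal1, another magnesium transporter, rose in zone 1 from 11.9 ± 3.8 to 37.0 ± 8.9 FPKM at an adjusted p of 0.0441. Its call was lost when any 1 of 5 of the 6 compared libraries was left out, all except NP zone 1 replicate 3, and also with a pseudocount of 0.1, no filter, quantile normalization or only the groups compared. The call of Slc41a3 was lost in zone 1 without replicate 2 of either group and in zone 2 without replicate 2 of dpc16 or with only the groups compared. Slc41a1, the third of the family, was at 4.63 against 3.62 FPKM in zone 1 and did not pass (limma adjusted p = 0.937). The median log2 difference of the list was 0.12, −0.05 and 0.09 in zones 1, 2 and 3, against −0.05, 0.04 and 0.01 over all genes.

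Among the lipases, where Pnliprp1 is a member, 1 of 8 tested genes fell in each zone and none rose, and in each zone it was Lipc, the hepatic lipase. Lipc went from 102 ± 30 to 25.6 ± 9.0 FPKM in zone 1, from 156 ± 29 to 14.5 ± 7.5 in zone 2 and from 154 ± 7 to 21.1 ± 8.7 in zone 3, with log2 differences of −1.97, −3.44 and −2.89 and limma adjusted p-values of 0.00338, 4.08e-06 and 3.75e-05. Without the libraries with Y-linked RNA they were −2.19, −3.12 and −2.57, and in zone 1 the call was lost when only the groups compared were fitted. Lipg, the endothelial lipase, was at 13.6 ± 9.7 FPKM in NP zone 3 and at 1.27 ± 1.92 at dpc16, a difference that missed the threshold at an adjusted p of 0.148. Without the libraries with Y-linked RNA Lipg was called lower in zone 3, by −4.11 at a limma adjusted p of 0.0105. With array weights it was called lower in zones 2 and 3, by −2.35 and −3.38 on the log2 scale. Array weights also gave Lipa lower in zone 2, by −0.75, and Mgll higher in zone 1, by 1.15. Lipa was called lower in zone 2 as well without dpc16 zone 2 replicate 1. Pnpla3 was called higher in zone 2, by 2.1, with terms for the replicate number in the fit. The median of the list was 0.05, −0.67 and −0.41 in the 3 zones.

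None of the 8 tested genes of the aromatic amino acid hydroxylases and their cofactor tetrahydrobiopterin, the clients of Dnajc12 and their supply, passed the test in any zone. Nor did any of the 23 tested J-domain cochaperones and HSP70 or HSP90 chaperones pass. Dnajb9 of the endoplasmic reticulum came nearest in zone 1, at 53.1 ± 22.3 against 15.7 ± 4.6 FPKM and an adjusted p of 0.0579. With array weights Dnajb9, Dnajb11, Hspa8 and Dnajc3 were called higher in zone 1, by 1.82, 1.12, 1.19 and 0.95 on the log2 scale, Dnajb9, Dnajb11 and Dnajc3 also in zone 2, by 1.74, 1.2 and 0.75, and Dnajc3 in zone 1 also without the libraries with Y-linked RNA, by 0.83 at a limma adjusted p of 0.0443. The 5 tested genes of the sperm flagellum and manchette and the 4 of histidine breakdown gave no call either, whereas with array weights Spata6 was called lower in zone 1 and Ift20 higher in zone 2, by −1.97 and 0.51. Without the libraries with Y-linked RNA 6, 6 and 5 list genes were called in zones 1, 2 and 3 in place of 3, 2 and 1. Over all genes the calls in that fit were 378, 576 and 468 in place of 177, 345 and 171. In each of the 3 zones the list genes called included Kng1, the kininogen gene, which rose by 0.93, 1.23 and 1.06 on the log2 scale. They also included Gchfr, the feedback regulator of tetrahydrobiopterin synthesis, which fell by 0.82, 0.92 and 1.17. In zone 2 Hal was called as well, and it fell by 1.27.

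**Figure D5:**
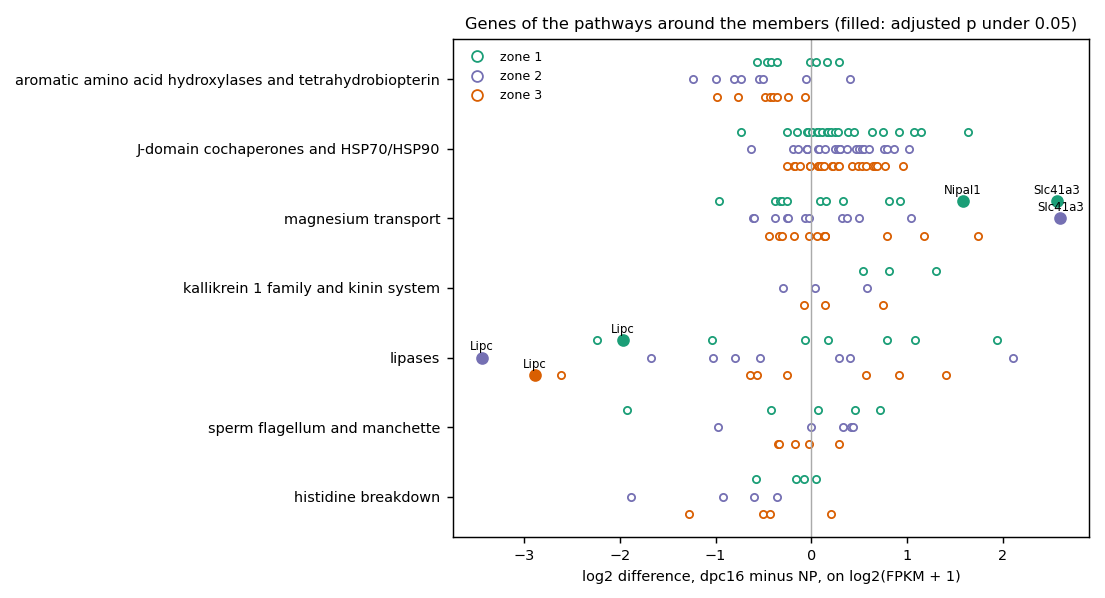
Log2 difference of dpc16 minus NP on log2(FPKM + 1) for the tested genes of 7 pathway lists (rows), 1 point per gene and zone with the 6 described genes left out. Filled points passed limma's adjusted p threshold of 0.05, and these are Slc41a3 in zones 1 and 2, Nipal1 in zone 1 and Lipc in all 3 zones.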

How the data were processed

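Levels of RNA were taken from 1 deposited table with 21823 genes and 27 libraries. Its values are FPKM, which the authors computed with Cuffdiff of Cufflinks 2.2.1 from uniquely mapped single-end reads of ribosome-depleted RNA, after trimming with cutadapt and alignment with HISAT2 2.1.0 to mm10 over protein-coding GENCODE genes. Uniquely mapped reads leave out stretches shared by close paralogs, and FPKM of 1 gene falls when others take more of a library. The FPKM of a library summed to 499866 to 704327 in NP and to 523854 to 988500 at dpc16. The ratios given were not scaled for these sums. Limma 3.58.1 in R 4.3.3 was fitted to log2(FPKM + 1) with 9 group means over all 27 libraries, an intensity trend and robust settings, on the 12952 genes with at least 1 FPKM in at least 3 libraries. Tests were two-sided with Benjamini-Hochberg adjustment over all these genes and a threshold of 0.05. This scale understates changes of low genes. The study used Cuffdiff, which needs reads. The fit was also run on simulated data with independent noise between libraries, and nothing is read from that run. Reads of Klk1b4 were estimated from the step of its library with an effective length 200 bases under the transcript's. Positions came from GENCODE vM21, promoters from RefSeq. The 6 genes, the pathway and marker lists and the tests were chosen with earlier results of these data known, and the promoter motifs and the tests of zone differences in change after the values were seen. The named genes are the 6, list genes past the threshold, the 3 most alike genes of each, neighbours and markers. Lipg, Lipa, Mgll, Pnpla3, Dnajb9, Dnajb11, Dnajc3, Hspa8, Cnnm2, Cnnm4, Spata6, Ift20, Slc41a1, Kng1, Hal in zone 2 and Gchfr, and Snrpf's levels, were added after values were seen. Some genes that this rule names are not reported here.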

Additional observations from a re-analysis of the deposited data

How the results depend on the processing

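Alternatives were a pseudocount of 0.1, no filter on low values, only the groups compared, array weights, quantile normalization, the replicate block, leaving out each library in turn, and leaving out the 6 libraries with Y-linked RNA. The number of the 6 genes called between zones 1 and 3 in NP was 0, and 1 with array weights, with the replicate block and without the 6 libraries, each time Slc41a2 (adjusted p = 0.0238, 0.00194 and 0.0270, limma). At dpc8 it was 0, and 1 with array weights and without the 6 libraries, each time Ccdc38. The NP values of Slc41a2 are the baseline of the rise that chose it, and Ccdc38 was kept in the test only through dpc16. Nothing is therefore read from these calls. Between dpc8 and NP no alternative gave a call in any zone. For the pathway genes between dpc16 and NP, 3 calls in zone 1 became 12 with array weights, 6 without the 6 libraries and 1 with only the groups compared, which was Slc41a3 and not Lipc, and 2 with a pseudocount of 0.1, no filter or quantile normalization, and ranged from 1 to 3 when 1 library was left out. The 1 came without NP zone 1 replicate 2 or dpc16 zone 1 replicate 2, which left Lipc, and Nipal1 was kept only without NP zone 1 replicate 3. The 2 calls in zone 2 became 11, 6 and 1, the last Lipc, and ranged from 1 to 3, with 1 without dpc16 zone 2 replicate 2. The 1 call in zone 3 became 6 with array weights, 5 without the 6 libraries, 2 with no filter and 2 with the replicate block. It stayed at 1 when single libraries were left out, and the call added with no filter was Klk1b5. Calls over all genes with array weights were not counted, so nothing is read from the rise of list genes called with them. Of the 18 pairs of a gene and a most alike gene, 12 were found again with a pseudocount of 0.1 and 7 without the 6 libraries. The count of 14 of 18 gene and zone pairs with dpc16 values above NP was 14 with quantile normalization and without the 6 libraries, and a pseudocount cannot change it. The other alternatives were not applied to it. Labels do not say that replicate numbers pair libraries. Deviations from the group mean of same-numbered libraries correlated at −0.07 to 0.60 between zones in NP, −0.32 to 0.70 at dpc8 and 0.26 to 0.86 at dpc16, and best with their own number for 6, 6 and 9 of 9 libraries. The block is therefore no paired test in NP or at dpc8. For zone differences it had replicate terms within each stage, and for dpc8 or dpc16 against NP terms shared by all stages. Same-numbered libraries of a zone correlated at −0.18 to 0.68 between dpc8 and NP and at −0.42 to 0.19 between dpc16 and NP. Between stages the block is therefore no paired test either. Over all genes it gave 282 calls between zones in NP against 173, 459 at dpc8 against 208, and 265 between dpc16 and NP in zone 3 against 171. Without the 6 libraries dpc8 gave 357 between zones, dpc8 against NP 9, 5 and 9 in zones 1, 2 and 3 against 4, 1 and 2, and dpc16 against NP 378, 576 and 468 against 177, 345 and 171. The cause of these differences was not tested. Limits are 3 libraries per group and unknown counts for genes with several transcripts. 2210407C18Rik and Pnliprp1 had few reads or none outside their high zones at dpc16, and Ccdc38 had low values or 0 in NP and at dpc8.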
